A study of Mus musculus with 162 samples.

Results

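The 40 genes described here encode the machinery of autophagy, the process by which a cell encloses its own material and carries it to the lysosome, together with lysosomal proteins. They were chosen by gene symbol for their place in the pathway, with no threshold on any value of the table. All 40 symbols were found among the 53686 genes of the count table. By role, 5 are ubiquitin-like proteins that are joined to membrane lipid, 4 belong to the initiation kinase complex, 4 to the lipid kinase complex, 5 act in lipid transfer or bind phosphatidylinositol 3-phosphate (PI3P), 6 carry out conjugation, 4 are proteases, 5 are cargo receptors, 5 are lysosomal and 2 are transcription factors. Of these, 39 passed the filter on low counts in each of the 9 organs. The exception, Atg2a, had 17 counts in all, spread over 14 libraries and never more than 2 in a library, which is under the floor of 3 counts, so its level cannot be read from this table and it appears in no comparison.

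The study sequenced polyadenylated RNA from 9 organs of 18 male C57BL/6J mice aged 8 to 9 weeks, 3 mice at each of 6 fasting times, giving a library for each organ and mouse. The organs were olfactory bulb (OB), telencephalon with diencephalon (BRN), cerebellum (CBL), brainstem made of mesencephalon, pons and myelencephalon (BST), stomach (STM), liver (LIV), interscapular brown fat (iBAT), and perigonadal (pgWAT) and posterior-subcutaneous (psWAT) white fat. All mice were killed at the same hour, shortly after lights off: the 0 h mice had food throughout, the fasts of 2 h, 8 h and 12 h (here the daytime fast) began in the light period of that day, and those of 18 h and 22 h (here the late fast) also took in the night before. The authors left out 5 libraries with few reads, BRN 8 h replicate 3, BRN 18 h replicate 1, STM 12 h replicate 3, iBAT 22 h replicate 1 and psWAT 22 h replicate 2, and the rest are used here. Each late fast group therefore has 6 mice, except 5 in BRN, iBAT and psWAT, and each fed group has 3.

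Counts per retained library, given as lowest, median and highest, were 8224940, 11630035 and 17704828 in OB, 3045845, 8113246 and 12108290 in BRN, and 6998492, 10540289 and 11776354 in BST. They were 6851903, 8735554 and 13769280 in STM, 3156101, 9576245 and 27801717 in iBAT, 5784709, 8163341 and 19829510 in pgWAT, and 4099281, 6880700 and 9802381 in psWAT. In LIV the lowest and highest were 6959200 and 12451777. In CBL the 3 fed libraries held 20396385 to 22071004 counts and all others 6487419 to 9487976, so depth and feeding state move together there. The 5 libraries left out held 130701, 279848, 4590060, 2700482 and 2944552 counts. Levels below are counts scaled to library size with trimmed mean of M-values factors (normalized CPM), and folds are log2 fold changes (log2FC) with their standard error (SE).

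Autophagy is active at a low rate in most fed tissue and is raised when nutrients run short, when the kinase mTORC1 releases the ULK1 complex and the transcription factors TFEB and TFE3. Much of this control acts on proteins already present, and an mRNA level measures neither the flow of material to the lysosome nor the amount of a protein. A set of organs taken from the same fasted mice allows each gene to be followed from tissue to tissue over the length of the fast.

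Several libraries went against their labels or stood apart. In pgWAT, 4 epididymis markers (Defb20, Lcn5, Cst8 and Crisp1, the last the most abundant) summed to 2621 normalized CPM in 2 h replicate 2, 9257 in 18 h replicate 3, 19648 in 22 h replicate 2 and 601 in 22 h replicate 3, beside 30.9 or less in the other 14. In pgWAT 18 h replicate 2 hepatocyte markers (led by Alb) summed to 4089, beside 4.24 to 289.7 in the other 17. The pgWAT library 22 h replicate 2 had the lowest adipocyte sum of the organ, 2840, beside 14868 to 41164 in the rest. In psWAT, 12 h replicate 3 held cerebellum markers at 2340 and neuron markers at 3397, and over all its libraries the adipocyte sum ran from 355 to 27368, lymphocyte markers from 104.9 to 2188 and skeletal muscle markers from 13.8 to 28693. In psWAT 12 h replicate 1 pancreas acinar markers summed to 182.5, beside 4.89 or less in the other psWAT libraries. In iBAT 8 h replicate 2 stomach epithelium markers summed to 160.1, beside 0.557 or less in the other iBAT libraries. The olfactory bulb, cerebellum, hepatocyte and brown adipocyte markers were present in the OB, CBL, LIV and iBAT libraries, in that order. No marker set was particular to BRN or BST. Neuron, astrocyte and oligodendrocyte markers were present in both, but they do not tell the nervous organs apart.

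RNA and cell type measures also moved with fasting time. In iBAT the 2 libraries at 22 h, replicates 2 and 3, had 5.47% and 11.8% of their counts in mitochondrial genes, beside 19.5% to 36.2% in fed and 20.2% to 24.3% at 18 h, and their endothelium markers summed to 132.8 and 191.5 beside 389 to 803 in fed. Their adipocyte markers summed to 21546 and 18712, beside 8745 to 12416 in fed and 10789 to 12333 at 18 h, and their share of counts in 3 nuclear RNAs (Malat1, Neat1 and Meg3) was 0.05% and 0.06%, beside 0.0829% to 0.287% in fed. In BRN the mitochondrial share was 3.49% to 6.82% in fed and 6.82% to 11.8% in the late fast, while oligodendrocyte markers (led by Mbp) went from 5008 to 6454 in fed and 5845 to 20413 late, and neuron markers (led by Snap25) from 3431 to 3907 in fed and 2132 to 3771 late. In the same BRN libraries fed and late did not overlap in astrocyte markers (1402 to 1623 fed, 1812 to 2668 late), erythroid markers (40.8 to 99.2 fed, 125.4 to 469 late) or nuclear RNA share (0.116% to 0.209% fed, 0.0222% to 0.0953% late).

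In STM the mitochondrial share was 2.83% to 9.57% in fed and 11% to 24.4% late, stomach epithelium markers (led by Gkn1) summed to 28582 to 76042 in fed and 9654 to 41132 late, and skeletal muscle markers to 260 to 1667 in fed and 1823 to 3502 late, while the nuclear RNA share was 0.0501% to 0.11% in fed and 0.118% to 0.29% late. In CBL the mitochondrial share was 5.58% to 6.07% in fed and 4% to 5.35% late, and in OB endothelium markers summed to 30.1 to 33.3 in fed and 17.1 to 24.7 late. In pgWAT the mitochondrial share was 4.2% to 5.05% in fed and 5.1% to 7% late, and the nuclear RNA share 0.247% to 0.275% in fed and 0.0715% to 0.194% late. In LIV the mitochondrial share was 7.28% to 10.2% in fed and 4.24% to 8.82% late, with only 18 h replicate 3 inside the fed range. Sums of rare markers in LIV did not overlap for astrocyte (12.5 to 16.2 fed, 6.2 to 10.7 late), keratinocyte (2.31 to 2.96 fed, 4.25 to 7.83 late) and olfactory bulb (3.04 to 4.51 fed, 6.67 to 12.2 late). The marker sets named here are not all that separated fed from late. In STM neuron markers also did (9.44 to 20.4 fed, 24.95 to 52.1 late). In BRN brown adipocyte markers (5.11 to 5.66 fed, 8.48 to 16.6 late) and pancreas acinar markers (2.43 to 6.31 fed, 8.29 to 44.6 late) did as well. What part these measures have in the results below was not tested. In these bulk samples, fewer cells of a type and less RNA per cell cannot be told apart.

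Late fast folds followed gene length in some organs. Over all kept genes of known length, the slope of late fast log2FC per doubling of merged exon length was −0.24 in BRN, −0.25 in iBAT and −0.21 in pgWAT, beside 0.10 in STM, −0.01 in LIV, 0.01 in CBL, 0.02 in BST, −0.06 in OB and 0.07 in psWAT. In iBAT the slope was −0.05 at 18 h and −0.45 at 22 h, where the median log2FC was 0.74 in the shortest 25% of genes and −0.89 in the longest 25%. Members differ in length, from Map1lc3a with 1181 bases of merged exon to Rb1cc1 with 14690. Lane, read from the column names of the table, was also tied to feeding: in OB, STM, LIV and pgWAT all fed libraries ran in 1 lane and all late fast libraries in another, so that lane and late fast cannot be told apart there by these 2 groups alone. In BRN the column names fall into 2 series of library numbers, with all 3 fed libraries in 1 series and all 5 late fast libraries in the other, so library series and late fast cannot be told apart there. In iBAT the 22 h libraries, replicates 2 and 3, ran in lanes 1 and 3, which hold no other retained iBAT library. Lane and 22 h cannot be told apart there. Of these, replicate 2 was the only retained iBAT library of its series.

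**Figure D1:**
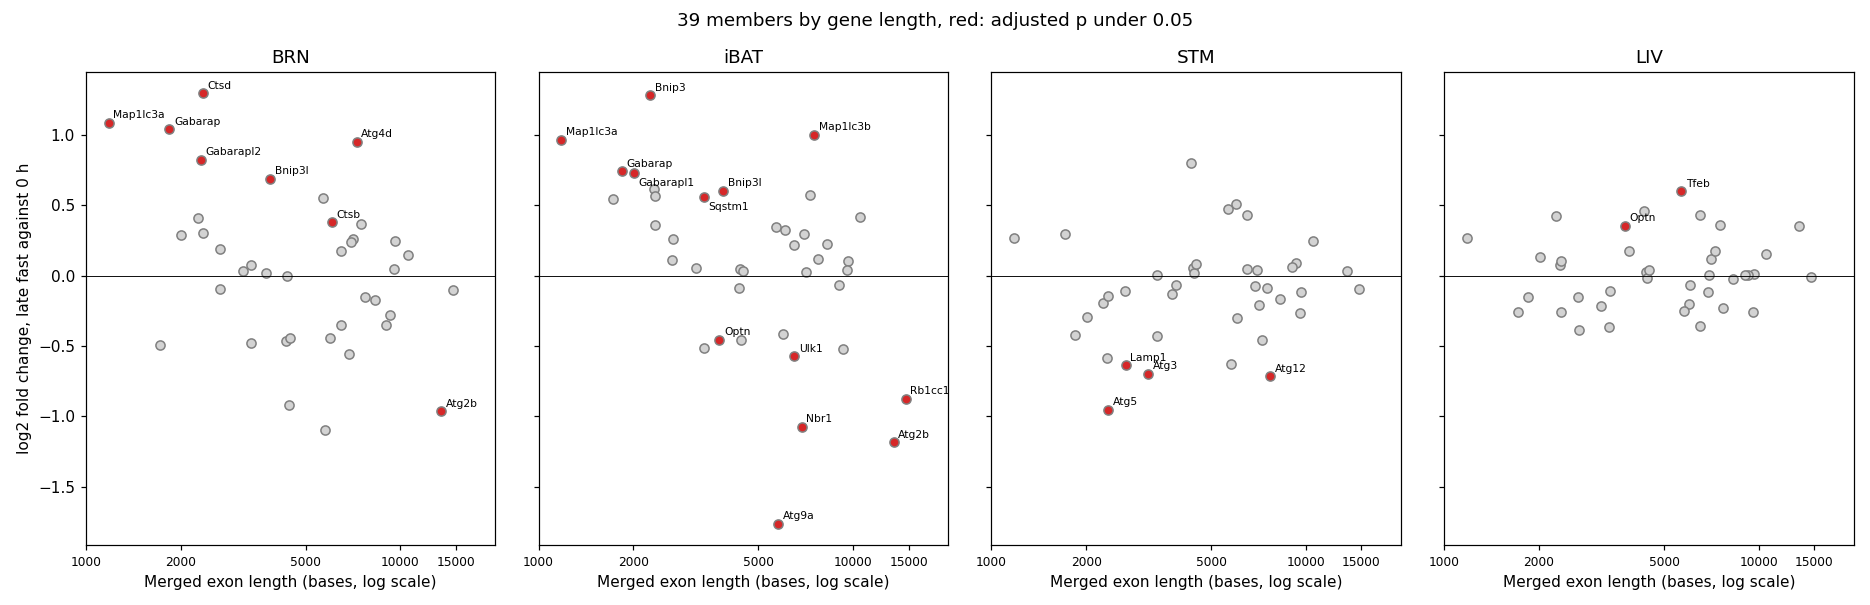
Late fast log2FC of each member against its merged exon length in BRN, iBAT, STM and LIV, with members at adjusted p under 0.05 in red. The slope over all kept genes was −0.24 in BRN and −0.25 in iBAT.

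The first question was which members differ in mRNA level between the late fast and the fed state within an organ. It was asked with the edgeR quasi-likelihood test on all kept genes of the organ, with p adjusted by Benjamini-Hochberg over those genes, and a member was called at adjusted p under 0.05. In iBAT, 7 members rose and 6 fell out of 39, beside 7.91% of all genes up and 13% down, with a median log2FC of 0.12 over members and −0.07 over all genes. In BRN, 7 rose and 1 fell, beside 7.08% up and 4.17% down (medians 0.05 and −0.09). In STM, 4 fell and none rose, beside 9.09% down and 6.21% up (medians −0.09 and 0.00). In LIV, 2 rose and none fell, beside 5.19% up and 5.39% down (medians 0.00 and 0.01). Members with unadjusted p under 0.05 numbered 23 in iBAT, 14 in BRN, 11 in STM and 13 in LIV. DESeq2 called 17, 11 and 5 members in iBAT, BRN and STM, and in LIV it called Map1lc3b, which edgeR did not.

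The same test called 0 members in the other 5 organs. In OB, where 1.95% of all genes were called, 6 members had unadjusted p under 0.05 and DESeq2 called 2 (median log2FC 0.04 over members and −0.01 over all genes). The numbers were 0.344% of genes, 4 members unadjusted and 0 with DESeq2 in CBL (medians 0.01 and −0.01), and 0.0596%, 2 and 0 in BST (medians 0.00 and 0.00). In pgWAT they were 0.00609%, 7 and 3 (medians 0.12 and 0.05), and in psWAT 0%, 3 and 0 (medians −0.13 and −0.01). In pgWAT the largest member fold was that of the protease gene Atg4a, 1.85 (SE 0.701, adjusted p 0.162): its level was 124.5 and 92.1 normalized CPM in 18 h replicate 3 and 22 h replicate 2, the libraries with the most epididymis marker counts, and 9.31 to 21.6 in the other 16.

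These counts moved when single libraries were left out. In iBAT the count of 13 became 3 without 0 h replicate 2 and 8 without 22 h replicate 2. In BRN the count of 8 became 0, 1 and 2 without 0 h replicates 1, 2 and 3, 5 without 8 h replicate 1 or 8 h replicate 2, 2 without 18 h replicate 2, 13 without 18 h replicate 3, and 3 without 22 h replicate 1 or 22 h replicate 2. In STM the count of 4 became 10 without 0 h replicate 2, 1 without 0 h replicate 3 or 18 h replicate 1, and 2 without 18 h replicate 3. In LIV the count of 2 became 5 without 18 h replicate 2 and 1 without any single library other than 2 h replicates 1 and 2 and 18 h replicates 1 and 2. In OB the count of 0 became 3 without 0 h replicate 3, 1 without 2 h replicate 2, 4 without 18 h replicate 2 and 2 without 22 h replicate 2. It was 0 in CBL, BST, pgWAT and psWAT whichever library was left out. With lane added to the edgeR fit no member was called in BRN, STM or LIV, and with the 5 left out libraries put back none was called in BRN. With offsets in the fit that take out each library's trend on length, the late fast called 9 members in BRN, all up, with 6 of the 8 called without offsets among them, and in iBAT 11 up and 3 down, with 8 of the 13 among them.

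**Figure D2:**
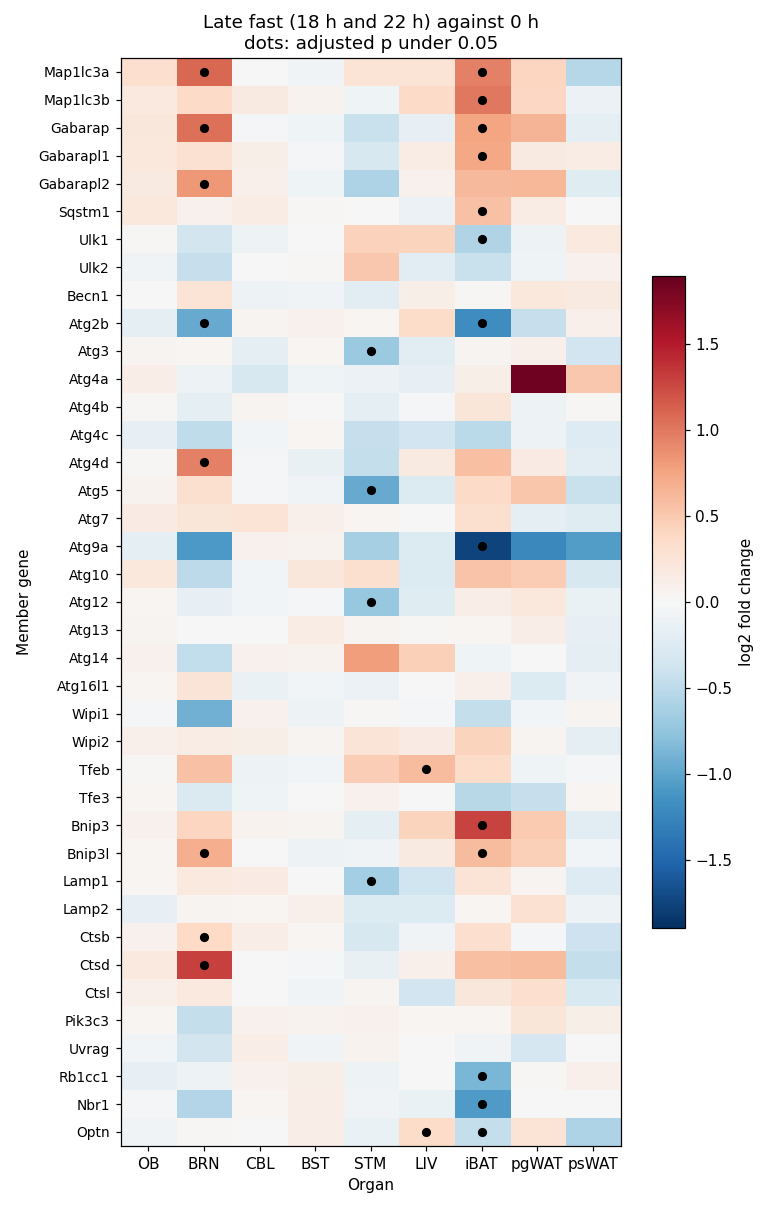
Late fast log2FC of the 39 members that could be tested in the 9 organs, in the order of the gene list and not grouped by role. A dot marks adjusted p under 0.05.

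The ubiquitin-like conjugates are the proteins joined to phosphatidylethanolamine on the growing membrane, and all 5 were called in the late fast in BRN, iBAT or both, where 11.2% and 20.9% of all genes were called. Map1lc3a, at chr2:155276297-155278073, stood at 147.6, 186 and 203 normalized CPM in the fed BRN libraries, 420.3 and 317 at 18 h, and 456, 451 and 268 at 22 h, and Gabarap at 130.8, 129 and 158 fed, 255 and 276 at 18 h, and 308, 382 and 236 at 22 h. Gabarapl2 ran from 35.2 to 42.8 fed and from 53.4 to 106 late. For all 3 genes each of the 5 late fast libraries lay above each fed library. Map1lc3a rose by 1.09 (SE 0.191, adjusted p 0.00831), Gabarap by 1.04 (SE 0.214, adjusted p 0.0107) and Gabarapl2 by 0.82 (SE 0.253, adjusted p 0.0435) on the log2 scale. Without 0 h replicate 1, Map1lc3a was no longer called (0.98, adjusted p 0.0916). Gabarap lost its call without 0 h replicate 1 (1.01, adjusted p 0.0949) or 0 h replicate 2 (1.00, adjusted p 0.0508). With lane in the fit the log2FC was 0.90 for Map1lc3a and 0.97 for Gabarap (adjusted p 0.524 for both), and with the left out libraries put back it was 1.21 (adjusted p 0.162) and 1.01 (adjusted p 0.204).

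In iBAT the conjugates were high above all in the 2 libraries at 22 h. Map1lc3b, at chr8:121590361-121598760, stood at 143.2, 109.3 and 170.1 normalized CPM in fed, 172, 233.4 and 203 at 18 h, and 444 and 338 at 22 h, and Gabarapl1 at 120.3, 102.97 and 117.7 fed, 159.7, 167.1 and 153.4 at 18 h, and 204 and 242 at 22 h. Map1lc3a was 178, 122.4 and 189.5 fed, 190.8, 186.8 and 184 at 18 h, and 600.2 and 486 at 22 h, and Gabarap 258, 172 and 252 fed, 234.98, 284 and 253 at 18 h, and 615 and 508 at 22 h. Map1lc3b and Gabarapl1 lay above every fed library in 5 of 5 late libraries, and Map1lc3a and Gabarap in 3 of 5, with their 18 h libraries overlapping the fed ones. The log2FC was 1.00 for Map1lc3b (SE 0.205, adjusted p 0.00508), 0.73 for Gabarapl1 (SE 0.178, adjusted p 0.011), 0.96 for Map1lc3a (SE 0.243, adjusted p 0.0129) and 0.74 for Gabarap (SE 0.209, adjusted p 0.0208). Map1lc3b was called whichever library was left out (0.84 to 1.16), while Gabarapl1 lost its call without 0 h replicate 2 (0.66, adjusted p 0.07). Gabarapl1 also lost its call with length offsets in the fit. With the 22 h libraries left out, the 18 h libraries alone gave 0.51 for Map1lc3b (adjusted p 0.404) and 0.48 for Gabarapl1 (adjusted p 0.374).

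In LIV the edgeR test called no conjugate in the late fast, while with DESeq2 Map1lc3b had adjusted p under 0.05. Map1lc3b was 78.6, 82.3 and 62.3 normalized CPM in fed, 77.4, 103.7 and 108 at 18 h, and 99.7, 97.4 and 86.3 at 22 h (log2FC 0.36, adjusted p 0.0524). Of the 6 late libraries, only 18 h replicate 1 lay inside the fed range, and without it the value was 0.42 with adjusted p 0.0161. Gabarapl1 was 191.4, 211 and 114.6 fed, 146.8, 206 and 218 at 18 h, and 198, 187.9 and 179 at 22 h, with overlapping groups (log2FC 0.13, adjusted p 0.654). Its sign depended on the low 0 h replicate 3, without which the value was −0.09.

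The initiation kinase complex starts membrane formation. Ulk1, its kinase, was 47.5, 77.5 and 73.6 normalized CPM in fed iBAT, 52.5, 57.3 and 55.2 at 18 h, and 38.9 and 33.2 at 22 h. Rb1cc1, its scaffold, was 64.7, 59.2 and 61.9 fed, 53.2, 65.2 and 57.5 at 18 h, and 8.92 and 28.5 at 22 h. Only the 22 h libraries lay below all fed ones for Ulk1 (2 of 5), and for Rb1cc1 4 of 5 late libraries did so and 1 lay above. Ulk1 fell by 0.57 (SE 0.195, adjusted p 0.0446) and Rb1cc1 by 0.88 (SE 0.242, adjusted p 0.0196). The Ulk1 call was lost without any single library other than 0 h replicate 1 and the 3 libraries at 12 h (adjusted p up to 0.206), and without the 22 h libraries the value was −0.28 (adjusted p 0.713). It also ended with length offsets, with RLE scaling, with no filter or with all libraries. In LIV Ulk1 was 87.8, 87.1 and 49.04 fed, 114.8, 98.6 and 127 at 18 h, and 100.3, 93.5 and 73.8 at 22 h, above all fed libraries in 5 of 6, with a late fast log2FC of 0.43 that was not called (adjusted p 0.0924) and became 0.20 without 0 h replicate 3. Ulk2, the second kinase, had log2FC between −0.44 in BRN and 0.51 in STM, and Atg13, which links kinase and scaffold, between −0.16 in psWAT and 0.14 in BST, and neither was called in the late fast of any organ.

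The lipid kinase complex makes PI3P at the site of membrane formation, and none of its 4 members was called in the late fast of any organ by the edgeR test. Late fast log2FC ran from −0.21 in STM to 0.26 in BRN for the scaffold Becn1, from −0.45 in BRN to 0.24 in pgWAT for the kinase Pik3c3, from −0.46 in BRN to 0.80 in STM for the targeting subunit Atg14, and from −0.35 in BRN to 0.13 in CBL for Uvrag, the subunit of the endosomal form of the complex. Atg14 in LIV was 13.5, 13.3 and 10.99 normalized CPM in fed and 20.2, 27.2 and 23.3 at 2 h, 18.1, 20.3 and 17.1 at 8 h, and 14.2, 18.1 and 31.4 at 12 h. All 9 of these daytime libraries lay above the 3 fed ones, and Atg14 rose by 0.73 in the daytime fast (SE 0.196, adjusted p 0.0481).

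Of the 4 readable members that move lipid to the membrane or bind PI3P on it, 2 were called in the late fast. Atg2b, which bridges the membrane and its lipid source, was 24.5, 40.7 and 39.01 normalized CPM in fed iBAT, 28.8, 30.3 and 24.9 at 18 h, and 3.19 and 12.3 at 22 h. Atg9a, the scramblase of the seed vesicles, at chr1:75180860-75192196, was 13.4, 21.4 and 21.8 fed, 18.6, 17.9 and 20.6 at 18 h, and 0.637 and 2.12 at 22 h, which came from 2 and 19 counts, the former under the floor of 3. In both genes the 18 h libraries overlapped the fed ones and only the 2 libraries at 22 h lay below. Atg9a fell by 1.76 (SE 0.303, adjusted p 0.0021) and Atg2b by 1.18 (SE 0.285, adjusted p 0.0109). Atg9a was called whichever library was left out (−2.42 to −1.58), and Atg2b lost its call without 0 h replicate 2 (−1.06, adjusted p 0.0641) and had −1.87 without 22 h replicate 3. Atg2b also lost its call with length offsets in the fit. With both 22 h libraries out, the value was 0.00 for Atg9a (adjusted p 0.999) and −0.32 for Atg2b (adjusted p 0.688).

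Atg2b also fell in BRN, from 47.2, 36.5 and 45.2 normalized CPM in fed to 13.6 and 23.1 at 18 h and 23.4, 19.1 and 35.6 at 22 h, with 5 of 5 late libraries below all fed ones. Its log2FC there was −0.96 (adjusted p 0.0253), and the call was lost without any single 1 of 6 libraries, the 3 at 0 h, 18 h replicate 2, and 22 h replicates 1 and 2 (−1.05 to −0.81). With length offsets in the fit it was −0.44 (adjusted p 0.176). Late fast log2FC of Atg9a was −1.10 in BRN, −0.63 in STM, −1.22 in pgWAT and −1.06 in psWAT, not called in any of these. In STM its level was 19.9, 19.7 and 10.5 in fed and 6.86, 6.86 and 7.57 at 18 h, all 3 below fed (log2FC −1.23, adjusted p 0.0111), and 11.4, 19.6 and 18.03 at 22 h, inside the fed range. Shared exons were read from a later Gencode release than the one the authors counted with. By that release 31.8% of the merged exon of Atg9a lies under exon of another gene on the same strand, Gm29253. Union counting drops reads there if the annotation used for counting also held that gene. The PI3P binding genes Wipi1 (−0.92 in BRN to 0.08 in CBL) and Wipi2 (−0.17 in psWAT to 0.42 in iBAT) were not called in the late fast.

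Conjugation proteins attach the ubiquitin-like proteins to lipid, and 3 of the 6 genes were called in the late fast, all in STM and all down, beside 9.09% of all genes down there. Atg5, part of the complex that acts as the ligase, was 25.4, 25.4 and 61.8 normalized CPM in fed STM, 13.7, 27.5 and 16.4 at 18 h, and 22.6, 19.4 and 16.5 at 22 h. Atg12, its covalent partner, was 39.7, 31.8 and 64.02 fed, 20.1, 30.0 and 22.9 at 18 h, and 31.5, 36.1 and 25.6 at 22 h, and the E2-like Atg3 was 45.5, 44.8 and 70.8 fed, 24.4, 32.7 and 30.9 at 18 h, and 29.3, 40.9 and 41.3 at 22 h. Late libraries below every fed one numbered 5 of 6 for Atg5 and Atg12 and 6 of 6 for Atg3, and in all 3 genes 0 h replicate 3 was the highest library of its group.

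Atg5 fell by 0.95 in STM (SE 0.259, adjusted p 0.0222), Atg12 by 0.71 (SE 0.196, adjusted p 0.0233) and Atg3 by 0.70 (SE 0.192, adjusted p 0.0234). Without 0 h replicate 3 the values were −0.39 for Atg5 (adjusted p 0.299), −0.37 for Atg12 (adjusted p 0.228) and −0.44 for Atg3 (adjusted p 0.198). The calls of all 3 genes also ended without 18 h replicate 1 (−0.86, −0.65 and −0.64), and those of Atg5 and Atg12 without 18 h replicate 3 (−0.90 and −0.69). With lane in the fit the log2FC was −0.68 for Atg5 (adjusted p 0.798), −0.67 for Atg12 (adjusted p 0.748) and −0.73 for Atg3 (adjusted p 0.742). At 18 h alone the log2FC was −0.97 for Atg5 (adjusted p 0.0458), −0.89 for Atg12 (adjusted p 0.02) and −0.87 for Atg3 (adjusted p 0.0205), and Atg9a (−1.23, adjusted p 0.0111) and Lamp1 (−0.79, adjusted p 0.0153) fell as well, so that 5 members were down at 18 h beside 8.41% of genes and none up beside 5.92%. That count became 9 without 0 h replicate 2, 1 without 0 h replicate 3 or 18 h replicate 3, and 0 without 18 h replicate 1 or with lane in the fit. At 22 h in STM edgeR called 0 members beside 0.24% of genes (7 at unadjusted p under 0.05, 0 with DESeq2, and 1 with edgeR without 0 h replicate 2).

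The other conjugation genes were not called in the late fast of any organ: the E1-like Atg7 had late fast log2FC from −0.24 in psWAT to 0.30 in iBAT, the E2-like Atg10 from −0.49 in BRN to 0.55 in iBAT, and the ligase partner Atg16l1 from −0.25 in pgWAT to 0.25 in BRN.

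Among the 4 proteases, which trim the ubiquitin-like proteins and release them from lipid, only Atg4d was called in the late fast, in BRN. It was 28.7, 35.5 and 35.7 normalized CPM in fed, 79.5 and 46.6 at 18 h, and 61.1, 87.97 and 48.8 at 22 h, so that 5 of 5 late libraries lay above the fed ones. Atg4d rose by 0.95 (SE 0.279, adjusted p 0.0362). Late fast log2FC of Atg4b lay between −0.17 in BRN and 0.23 in iBAT, that of Atg4c between −0.51 in iBAT and 0.03 in BST, and that of Atg4a, outside pgWAT, between −0.30 in CBL and 0.51 in psWAT.

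Cargo receptors tether material to the membrane, and all 5 were called in the late fast in iBAT, 3 up and 2 down, beside 7.91% of all genes up and 13% down. Bnip3, a receptor on mitochondria, was 170.1, 112.9 and 253 normalized CPM in fed iBAT, 221, 352 and 381 at 18 h, and 567 and 623 at 22 h. Sqstm1, which binds ubiquitin on cargo, was 131.1, 134.2 and 136.9 fed, 151.1, 197 and 200.4 at 18 h, and 226 and 203 at 22 h, while Nbr1, a second receptor for ubiquitin, was 115.2, 153.6 and 117.3 fed, 117.6, 92.6 and 107 at 18 h, and 23.3 and 46.4 at 22 h. Every late library lay above fed for Sqstm1, 4 of 5 did so for Bnip3, and 4 of 5 lay below for Nbr1.

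In iBAT, Bnip3 rose by 1.28 (SE 0.297, adjusted p 0.00898), Sqstm1 by 0.56 (SE 0.174, adjusted p 0.0314) and the Bnip3 relative Bnip3l by 0.60 (SE 0.196, adjusted p 0.0379). Nbr1 fell by 1.07 (SE 0.232, adjusted p 0.00653) and Optn, a receptor with a ubiquitin binding domain, by 0.46 (SE 0.157, adjusted p 0.0464). Bnip3l was 88.98, 57.4 and 70.5 fed and 79.0, 115.4, 91.7, 139.9 and 113.2 late, above fed in 4 of 5, and Optn 99.7, 114.2 and 108.8 fed and 94.8, 90.3, 88.5, 51.9 and 81.98 late, below fed in 5 of 5. Nbr1 was called whichever library was left out (−1.37 to −0.88), and Bnip3 in every case but without 0 h replicate 2 (1.03, adjusted p 0.0669). Sqstm1 lost its call without any single 1 of 6 libraries, the 3 at 0 h, 18 h replicates 2 and 3, and 22 h replicate 2 (adjusted p up to 0.112). Without the 22 h libraries the values were 0.82 for Bnip3 (adjusted p 0.382), 0.44 for Sqstm1 (adjusted p 0.421) and −0.30 for Nbr1 (adjusted p 0.716).

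**Figure D3:**
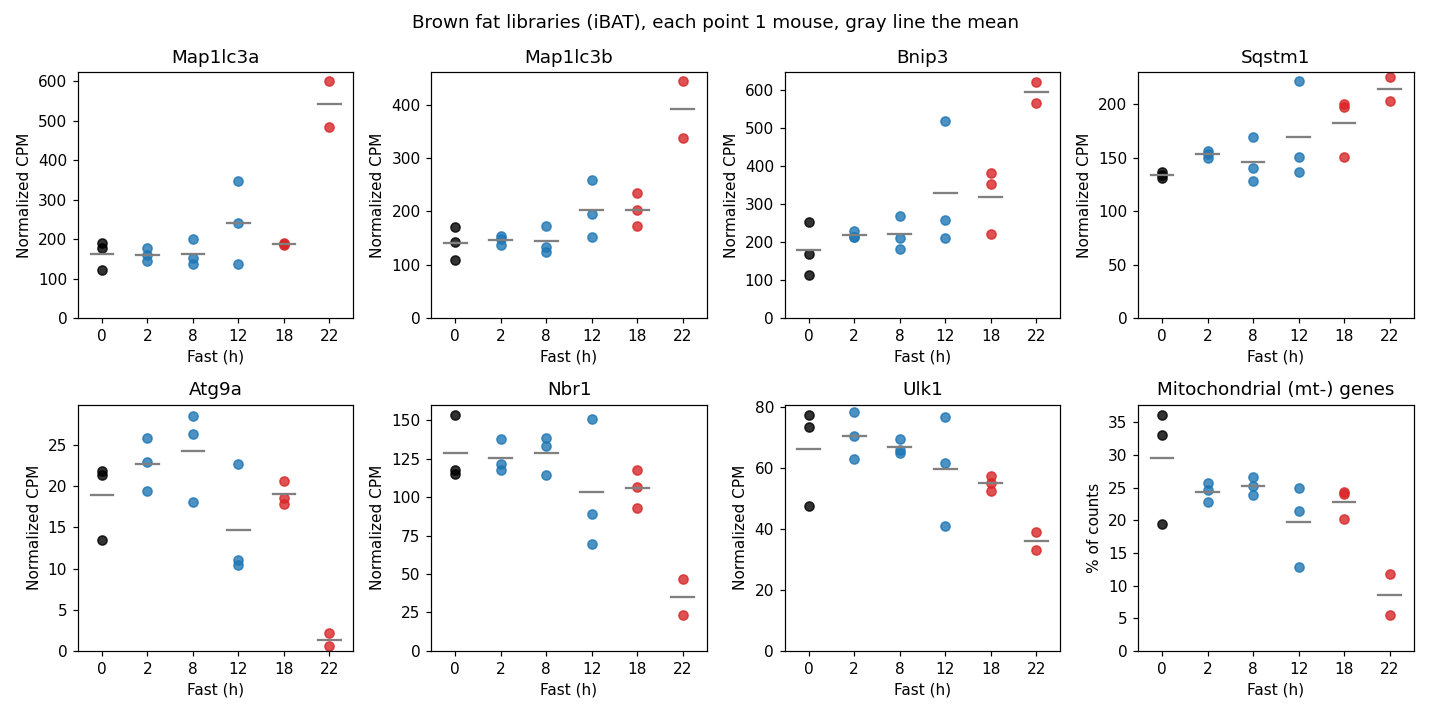
Normalized CPM of 7 members and the percent of counts in mitochondrial genes in each iBAT library by fasting time, with fed in black, daytime fast in blue, late fast in red and the mean as a gray line. At 22 h there are 2 libraries.

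In LIV the cargo receptor Optn was 103.9, 96.5 and 93.4 normalized CPM in fed, 129, 108 and 129 at 18 h, and 139.8, 121.7 and 123.6 at 22 h, with 6 of 6 late libraries above the fed ones. Optn rose by 0.35 (SE 0.111, adjusted p 0.0457), and lost the call without any single library other than 2 h replicates 1 and 2 and 18 h replicate 2 (adjusted p up to 0.149). Bnip3 was 262, 264 and 180.0 fed, 208, 326 and 302 at 18 h, and 329.5, 368 and 375 at 22 h (log2FC 0.42, adjusted p 0.0877), with 18 h replicate 1 the only late library inside the fed range and adjusted p 0.0292 without it. Sqstm1 was 243, 238 and 259.6 fed, 184, 234.3 and 230.7 at 18 h, and 256, 239 and 234.3 at 22 h (log2FC −0.11, adjusted p 0.551), with overlapping groups. In BRN, Bnip3l was 92.8, 96.6 and 96.9 fed, 155.3 and 105.2 at 18 h, and 192.5, 219 and 135.6 at 22 h, above fed in 5 of 5 libraries, and rose by 0.69 (SE 0.197, adjusted p 0.0331). That call ended without any single 1 of 6 libraries, the 3 at 0 h, 18 h replicate 2, and 22 h replicates 1 and 2 (log2FC 0.54 to 0.71, adjusted p up to 0.142).

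Of the 5 lysosomal members, 2 proteases were called in the late fast in BRN. The aspartic protease Ctsd was 173, 206 and 224 normalized CPM in fed, 616 and 381 at 18 h, and 533, 642 and 294 at 22 h, and the cysteine protease Ctsb was 633, 661 and 632 fed, 793 and 878 at 18 h, and 835, 926 and 737 at 22 h. For both genes 5 of 5 late libraries lay above the fed ones. Ctsd rose by 1.30 (SE 0.281, adjusted p 0.0142) and Ctsb by 0.38 (SE 0.119, adjusted p 0.0478). The Ctsd call ended without 0 h replicate 1 (1.21, adjusted p 0.0993), 0 h replicate 2 (1.33, adjusted p 0.0514), 0 h replicate 3 (1.39, adjusted p 0.0522) or 18 h replicate 2 (1.10). By the later Gencode release 34.4% of the merged exon of Ctsd lies under exon of Gm49369 on the same strand.

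Lamp1, a membrane protein of the lysosome at chr8:13159161-13175338, was 498, 391 and 583 normalized CPM in fed STM, 271, 284 and 298 at 18 h, and 342, 378 and 328 at 22 h. All 6 late libraries lay below the 3 fed ones, and Lamp1 fell by 0.64 (SE 0.163, adjusted p 0.0172). The call ended without 0 h replicate 1 (−0.61, adjusted p 0.0606) or 0 h replicate 3 (−0.49, adjusted p 0.0981), and with lane in the fit the log2FC was −0.66 with adjusted p 0.732. In LIV, Lamp1 was 550.3, 551 and 491 fed, 296, 447 and 413 at 18 h, and 396, 409 and 484 at 22 h, again with 6 of 6 below, but the log2FC of −0.38 was not called (adjusted p 0.0756) except without 18 h replicate 2 (−0.44, adjusted p 0.0438). The cysteine protease Ctsl in LIV was 422, 427 and 343 fed, 229, 352 and 351 at 18 h, and 327, 278 and 323 at 22 h (−0.36, adjusted p 0.137), with 2 late libraries inside the fed range. In iBAT, Lamp1 was 672, 494 and 546 fed and 699, 698, 668, 584 and 777 late (0.26, adjusted p 0.216), and Ctsl 175, 163 and 151.1 fed and 176, 204, 182, 187.6 and 198 late (0.22, adjusted p 0.231). Lamp2, a second membrane protein, had late fast log2FC from −0.27 in STM to 0.30 in pgWAT and was not called in the late fast of any organ.

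The transcription factor Tfeb, which binds promoters of lysosomal genes, lies at chr17:47737030-47792419 and had the smallest adjusted p of the members in LIV. It was 15.2, 16.6 and 16.9 normalized CPM in fed, 26.8, 23.8 and 23.7 at 18 h, and 21.9, 26.9 and 24.1 at 22 h, with 6 of 6 late libraries above all fed ones. Tfeb rose by 0.60 (SE 0.133, adjusted p 0.00718) and kept its call whichever library was left out (0.55 to 0.63, adjusted p up to 0.0488). With lane in the fit the log2FC was 0.70 with adjusted p 0.211. In LIV the mitochondrial share was below all fed libraries in every late library but 18 h replicate 3. Its part was not tested. In iBAT, Tfeb was 16.3, 16.96 and 11.5 fed, 16.99, 12.8 and 12.7 at 18 h, and 31.5 and 19.7 at 22 h (0.35, adjusted p 0.414). Its relative Tfe3 was not called in the late fast of any organ, with late fast log2FC from −0.52 in iBAT to 0.09 in STM.

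Whether a member varied over the 6 times in any pattern was asked with a joint F test in the same edgeR fit, which shares the fed libraries with every other comparison here. It called 16 members in iBAT beside 29% of all genes, with the smallest adjusted p for Atg9a (0.000531), Map1lc3a (0.000841), Map1lc3b (0.00121) and Gabarap (0.00182). It called 9 in LIV beside 16%, namely Tfeb (adjusted p 0.00876), Ctsl (0.00994), Lamp1 (0.0102), Wipi1 (0.019), Atg12 (0.0249), Atg5 (0.0253), Nbr1 (0.027), Map1lc3a (0.0337) and Lamp2 (0.0451). In OB 8 were called beside 15.4%, Map1lc3a, Map1lc3b, Atg2b, Wipi1, Sqstm1, Bnip3, Ctsd and Ctsl. In CBL there were 3 beside 2.99%, Bnip3l (0.019), Bnip3 (0.0217) and Gabarapl2 (0.0328), and in STM 1 beside 6.55%, Atg9a (0.0213). The edgeR test called 0 members in BRN beside 0.00597% (9 at unadjusted p under 0.05, 3 with DESeq2), 0 in BST beside 0.107% (0 unadjusted, 0 with DESeq2), 0 in pgWAT beside 0% (2 unadjusted, 1 with DESeq2) and 0 in psWAT beside 0% (3 unadjusted, 3 with DESeq2).

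The joint counts also moved with single libraries. In iBAT 16 became 3 without 22 h replicate 2, and in LIV 9 became 4 without 2 h replicate 2 and 5 without 2 h replicate 3. In OB 8 became 2 without 8 h replicate 1 or 8 h replicate 3, 5 without 12 h replicate 2, 18 h replicate 3 or 22 h replicate 3, 4 without 12 h replicate 3 and 1 without 18 h replicate 1. In CBL 3 became 0 without 12 h replicate 2 or 12 h replicate 3, 6 without 18 h replicate 3 and 1 without 22 h replicate 2. In STM 1 became 3 without 0 h replicate 2, 2 without 12 h replicate 1 and 0 without 2 h replicate 3, 18 h replicate 1 or 18 h replicate 3. In BRN 0 became 6 without 18 h replicate 3 and 4 without 22 h replicate 3.

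In CBL the mean level of each of the 3 members called jointly was highest at 12 h and lowest at 18 h, though against 0 h edgeR called 0 members at 12 h beside 0.00626% of genes (10 at unadjusted p under 0.05, 4 with DESeq2, and 3 with edgeR without 18 h replicate 3) and 0 at 18 h beside 0.00626% (4 unadjusted, 0 with DESeq2). The cargo receptor Bnip3l was 132.04, 129 and 116.2 normalized CPM in fed, 155.5, 178 and 160.3 at 12 h, and 103.9, 102.8 and 121.4 at 18 h. Bnip3 was 74.5, 72.7 and 67.9 fed, 91.4, 82.5 and 93.5 at 12 h, 61.5, 63.3 and 68.7 at 18 h, and 86.3, 90.3 and 84.7 at 22 h. At 12 h all 3 libraries lay above fed in both genes, and at 18 h 2 of 3 lay below fed. Oligodendrocyte markers (led by Mbp) summed to 6865 to 8195 at 12 h and 7070 to 8934 at 22 h, beside 5002 to 6702 in fed, and endothelium markers (led by Pecam1) to 21.1 to 31.8 and 23.03 to 34.8, beside 15.2 to 19.98. Astrocyte markers (led by Aldoc) at 22 h summed to 3925 to 4127, beside 3393 to 3721 in fed. Hepatocyte markers (led by Ttr) at 22 h summed to 652 to 1007, beside 1770 to 5163 in fed, and the part of these markers was not tested. At 22 h Map1lc3b rose by 0.28 (adjusted p 0.0418), beside 0.945% of genes up and 3.02% down, with 303, 262 and 262 against 233.9, 225 and 222 in fed. That count of 1 became 0 without any single library of 0 h or 22 h, 2 h replicate 1 or 12 h replicate 2, 3 without 8 h replicate 1, 8 h replicate 2 or 18 h replicate 3, and 2 without 8 h replicate 3, 18 h replicate 1 or 18 h replicate 2.

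The daytime fast, the mean of 2 h, 8 h and 12 h against 0 h, called members in 2 organs. In BRN 4 rose beside 1.98% of genes up, and none fell beside 0.979% down: Ctsd by 1.08 (SE 0.264, adjusted p 0.0405), Gabarap by 0.96 (SE 0.201, adjusted p 0.0304), Map1lc3a by 0.88 (SE 0.178, adjusted p 0.0304) and Bnip3l by 0.70 (SE 0.185, adjusted p 0.0476). In each of these genes all 8 daytime libraries lay above the fed ones. As an example, Map1lc3a was 301, 245 and 262 normalized CPM at 2 h, 349.9 and 326 at 8 h, and 376, 488 and 325 at 12 h. The BRN slope of daytime log2FC on length was −0.22 per doubling, and with length offsets, with lane or with the left out libraries put back the count of 4 became 0. Astrocyte markers (led by Aldoc) summed to 1774 to 2948 in these 8 libraries, above the 1402 to 1623 of fed, and their part was not tested. The count of 4 became 0 without any single 1 of 8 libraries: the 3 at 0 h, 2 h replicates 1 and 3, 8 h replicates 1 and 2, and 22 h replicate 1.

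In LIV the daytime fast raised 1 member, Atg14, beside 1.21% of genes, and lowered 2 beside 1.53%: Ctsl fell by 0.54 (SE 0.142, adjusted p 0.0456) and Lamp1 by 0.49 (SE 0.127, adjusted p 0.0416), each below all fed libraries in 7 of 9. The count of 3 became 0 without any single 1 of 10 libraries, namely 0 h replicates 1 and 2, 2 h replicates 1 and 3, 8 h replicates 1 and 2, 12 h replicates 2 and 3, and 22 h replicates 1 and 2, and 1 without 0 h replicate 3. It also became 0 with the replicate number as a block. In the other organs edgeR called 0 members: OB beside 0% of genes (2 members at unadjusted p under 0.05, 0 with DESeq2), CBL beside 0% (4 unadjusted, 0 with DESeq2), BST beside 0.00596% (3 unadjusted, 0 with DESeq2, and 1 with edgeR without 0 h replicate 3) and STM beside 0% (3 unadjusted, 0 with DESeq2). It also called 0 in iBAT beside 0.833% (2 unadjusted, 1 with DESeq2), in pgWAT beside 0% (2 unadjusted, 0 with DESeq2) and in psWAT beside 0% (1 unadjusted, 0 with DESeq2).

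Single times were also read against 0 h, 12 h in LIV because Lamp1 and Ctsl were lowest then. The adjusted p values of these genes at 12 h are thus no separate test of that low level. With edgeR members were called at 12 h in LIV and BRN, at 18 h in OB, BRN, STM and LIV, at 22 h in BRN, CBL, LIV and iBAT, and at no other single time, where 0 to 10 members per organ had unadjusted p under 0.05 and DESeq2 counts were taken only where given in the text. At 12 h in LIV 2 members rose and 6 fell beside 5.68% of genes up and 6.18% down. Lamp1 was 296, 281 and 281 normalized CPM at 12 h, Ctsl 203, 201 and 199, Lamp2 347, 346 and 381 against 514, 526 and 427 in fed, Atg5 33.5, 36.7 and 33.8 against 53.7, 52.0 and 45.5, and Tfeb 24.8, 28.9 and 22.6. In all 8 genes the 3 libraries at 12 h lay beyond the 3 fed ones. Ctsl fell by 0.98 (SE 0.181, adjusted p 0.00258), Lamp1 by 0.89 (SE 0.161, adjusted p 0.00219), Atg12 by 0.55 (adjusted p 0.0277), Atg5 by 0.54 (adjusted p 0.0073), Lamp2 by 0.45 (adjusted p 0.0208) and Gabarap by 0.43 (adjusted p 0.0381). Atg14 rose by 0.74 (adjusted p 0.0426) and Tfeb by 0.65 (adjusted p 0.00847). The count of 8 became 4 without 0 h replicate 1, 0 h replicate 2 or 12 h replicate 2, and 5 without 12 h replicate 3, and with lane in the fit it was 2. In these 12 h libraries skeletal muscle markers (led by Acta1) summed to 648, 242 and 79.3, beside 0.705 to 25.6 in fed, and endothelium markers (led by Kdr) to 35.4, 34.7 and 30.8, beside 38.3 to 45.1, and their part in the result was not tested.

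At 18 h in LIV 2 members rose beside 5.15% of genes up and none fell beside 4.82% down, Tfeb by 0.61 (adjusted p 0.0141) and Ulk1 by 0.60 (adjusted p 0.0412), each above fed in 3 of 3 libraries. At 22 h 2 rose beside 2.33% and none fell beside 1.82%, Tfeb by 0.58 (adjusted p 0.0333) and Map1lc3a by 0.54 (adjusted p 0.0391), again 3 of 3. The mitochondrial share of these 22 h libraries was 4.72% to 6.74%, beside 7.28% to 10.2% in fed, and its part was not tested. The 18 h count of 2 became 1 without 0 h replicate 1, 2 h replicate 3, 8 h replicates 1 or 2, 12 h replicate 3, 18 h replicate 3 or 22 h replicate 2, each left out alone, and 4 without 18 h replicate 2. The 22 h count of 2 became 0 without any single library of 0 h or without 22 h replicate 2 or 3. With lane in the fit both counts became 0.

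In BRN 4 members rose at 12 h beside 4.08% of genes up and none fell beside 1.93% down: Map1lc3a (1.15), Gabarap (1.34), Ctsd (1.38) and Ctsb (0.45). At 18 h, with 2 libraries, 2 rose beside 1.88% and none fell beside 0.531%, Map1lc3a (1.04) and Ctsd (1.31), and at 22 h 5 rose beside 5.06% and none fell beside 1.82%, Map1lc3a (1.13), Gabarap (1.15), Gabarapl2 (1.05), Bnip3l (0.93) and Ctsd (1.28). All libraries of the time lay above the 3 fed ones in each case, and the 3 times share those fed libraries. At 12 h the nuclear RNA share was 0.0287% to 0.0365%, beside 0.116% to 0.209% in fed. Oligodendrocyte markers summed to 8391 to 9660 at 12 h, beside 5008 to 6454 in fed. Astrocyte markers summed to 2048 to 2948, beside 1402 to 1623, and erythroid markers to 99.5 to 529, beside 40.8 to 99.2. The part of these was not tested. The 12 h count of 4 became 0 without 0 h replicate 1, 2 without 0 h replicate 2 or 3, 1 without 12 h replicate 2, 8 without 18 h replicate 2 or 3 and 7 without 22 h replicate 3. The 18 h count of 2 became 0 without any single library of 0 h, 2 h replicate 3, 8 h replicate 1 or 2, 18 h replicate 2 or 22 h replicate 1, and 1, 5, 13 and 4 without 12 h replicate 1, 12 h replicate 2, 18 h replicate 3 and 22 h replicate 3, where leaving out 18 h replicate 2 or 3 leaves 1 library at 18 h. The 22 h count of 5 became 0 without any single library of 0 h or 22 h replicate 1 or 2, and 11 without 22 h replicate 3. With lane in the fit, or with the left out libraries put back, each of the 3 counts became 0, and with length offsets they became 2, 5 and 0.

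At 18 h alone, OB had 5 members up beside 5.7% of genes and 1 down beside 6.31%. Of the 5 conjugate genes 4 were among those up: Map1lc3a at 259.9, 186 and 198 normalized CPM against 139.4, 161.004 and 187.97 in fed, Gabarap at 244, 174 and 174 against 155.6, 146.2 and 169.1, Map1lc3b at 278, 228 and 262 against 205, 222 and 218, and Gabarapl1 at 780.5, 706 and 752 against 627, 634 and 648. Sqstm1 was 402, 399 and 403 against 333, 341 and 374, and Atg2b 24.03, 36.8 and 38.4 against 46.98, 48.2 and 42.7. All 3 libraries lay beyond fed in each gene but Map1lc3a (2 of 3). The log2FC was 0.40 for Map1lc3a (adjusted p 0.0326), 0.33 for Gabarap (0.0408), 0.25 for Map1lc3b (0.0372), 0.23 for Gabarapl1 (0.0267), 0.20 for Sqstm1 (0.0381) and −0.48 for Atg2b (0.0348). The OB slope on length at 18 h was −0.10, and with length offsets the count of 6 became 1. All 3 fed libraries ran in lane 3 and all 3 at 18 h in lane 4, and with lane in the fit it became 0. Erythroid markers (led by Hbb-bs) summed to 220.4, 149.3 and 100.9 in the 18 h libraries, beside 51.6 to 88.03 in fed, and the nuclear RNA share was 0.0231% to 0.0298%, beside 0.038% to 0.0476%. The mitochondrial share was 4.37% to 4.63% at 18 h, beside 4.79% to 6.41% in fed. Keratinocyte markers summed to 17.8 to 28.1, beside 12.7 to 16.8, and endothelium markers to 20.1 to 23.3, beside 30.1 to 33.3, and the part of these was not tested. In OB the count of 6 became 0 without 0 h replicate 1 or 18 h replicate 1, 1 without 0 h replicate 2 and 3 without 18 h replicate 3. At 22 h in OB edgeR called 0 members beside 0.113% of genes (4 at unadjusted p under 0.05, 0 with DESeq2), with a smallest adjusted p of 0.242.

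In iBAT the late times differed. At 18 h, with 3 libraries, edgeR called 0 members beside 0.275% of genes (4 at unadjusted p under 0.05, 0 with DESeq2). At 22 h, with 2 libraries, it called 13 up beside 19.1% and 10 down beside 22%, and the total of 23 became 10 without 22 h replicate 2, which leaves 1 library at 22 h, with the spread taken from the other times. The largest values at 22 h were −3.54 for Atg9a (adjusted p 0.000186), −2.06 for Atg2b, −1.86 for Nbr1, −1.67 for Rb1cc1, 1.74 for Bnip3, 1.73 for Map1lc3a and 1.47 for Map1lc3b. These are also the libraries with low mitochondrial share and the steep slope on length.

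The next question was whether the late fast effect on a member differs between organs. It was put to 11679 genes kept in every organ with an edgeR F test of the 8 organ by late fast terms, with each mouse as a block. Mice were matched across organs by fasting time and replicate number, which the labels do not state to mark the same mouse. The test called 16 of 39 members beside 34.2% of genes. With the left out libraries put back, fewer members were called. Atg5 had the smallest adjusted p, 7.1e-05, and its late fast log2FC was −0.95 in STM, −0.42 in psWAT, −0.26 in LIV, 0.30 in BRN, 0.36 in iBAT and 0.52 in pgWAT. Gabarap followed (adjusted p 0.000331), with −0.42 in STM, −0.15 in LIV, 0.64 in pgWAT, 0.74 in iBAT and 1.04 in BRN, then Atg4d (0.00162), with −0.46 in STM and 0.95 in BRN. Lamp1 (0.00573), Map1lc3b (0.015), Ulk1 (0.0117) and Nbr1 (0.0271) were also among the 16. Tfeb (0.177), Sqstm1 (0.169), Map1lc3a (0.241), Atg9a (0.295), Bnip3 (0.524), Optn (0.646) and Gabarapl1 (0.716) were not, so no organ difference is given for them.

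Further genes of the same pathways were read beside the members. The shares of all genes to read these counts against are those of the late fast: 7.08% up and 4.17% down in BRN, 6.21% and 9.09% in STM, 5.19% and 5.39% in LIV, and 7.91% and 13% in iBAT. Of 33 further lysosome genes in the late fast, 4 rose in BRN, led by the cholesterol carrier Npc2 (log2FC 0.83, adjusted p 0.00914), with a list median of 0.15. In STM 7 fell, led by Ctsh (−1.24, adjusted p 0.00455), and 1 rose (median −0.16), and in LIV 4 fell, led by Lipa (−0.56, adjusted p 0.0152), and 1 rose (median 0.01). In iBAT 6 rose, led by Ctsf (1.00, adjusted p 0.0021), and 2 fell (median 0.16). Of 16 genes of the V-ATPase, the proton pump of the lysosome, 2 rose in BRN (Atp6v1f by 1.04, Atp6v0b by 1.12), 3 fell in STM, 1 rose in LIV (Atp6v0b by 0.44), and in iBAT 3 rose and 2 fell.

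Among 31 genes that control mTORC1, AMPK or TFEB (30 kept in LIV), Flcn rose by 1.29 in LIV (adjusted p 0.000106), where Rraga and Lamtor1 fell. In BRN 4 rose, led by Lamtor4 (1.35, adjusted p 0.00831), and 4 fell, among them Mtor (−0.50), beside 7.08% of all genes up and 4.17% down. In iBAT 1 rose, Ddit4 (1.41), and 4 fell, among them Mtor (−1.10), beside 7.91% up and 13% down, and in OB 1 rose, Ddit4 (0.56, adjusted p 0.00631), beside 0.782% up. In STM 2 rose, Sesn1 (1.18, adjusted p 0.0095) and Foxo3 (0.69, adjusted p 0.0261), and Lamtor1 fell (−0.69, adjusted p 0.0482), beside 6.21% up and 9.09% down. Of 16 further machinery genes, 1 rose and 2 fell in BRN, 1 rose and 1 fell in STM, 2 rose and 2 fell in LIV (Wdr45 0.58, Wdr45b 0.57, Tmem41b −0.50, Snap29 −0.42), and 2 rose and 3 fell in iBAT. Of 14 further cargo receptors, the numbers up and down were 2 and 0 in BRN, 1 and 2 in STM, 1 and 1 in LIV (Calcoco1 0.85, Fundc1 −0.65) and 3 and 1 in iBAT.

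As a check of feeding state, Fasn, a gene lowered by fasting, fell by 1.85 in LIV and by 1.46 in iBAT, and Pdk4, a gene raised by fasting, rose by 1.90 in STM. In iBAT the fasting gene Cpt1a went the other way, with −0.96, and in OB, BRN, pgWAT and psWAT no gene of this check was called in the late fast.

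Levels of members were compared with each other as normalized CPM per kilobase of merged exon, since longer genes collect more counts. The scaling of libraries here differs from that of the levels given organ by organ above. In LIV the lowest Optn value on this scale was 39.02, more than the LIV levels above give when divided by length. Values of this scale should therefore not be set against those levels. On this scale, averaged over organs, the highest members were Lamp1 (205), Ctsd (175), Gabarapl1 (170.2), Ctsb (158), Gabarap (142.1) and Map1lc3a (137.4), and the lowest were Uvrag (3.78) and Atg2b (2.86). By mean level within organs Lamp1 was highest only in LIV (250.4). Gabarapl1 was highest in OB (286.3), BRN (309.5), CBL (172.5) and BST (323). Ctsd was highest in STM (206.1), iBAT (399.7), pgWAT (304.9) and psWAT (172.5), also by mean. Its SD was 192.3 in iBAT, 108.1 in pgWAT and 85.5 in psWAT. By median Lamp1 lay above Ctsd in iBAT (332.1 and 330.9) and in psWAT (146.3 and 128.8). In pgWAT the median of Ctsb (291.4) lay above those of Lamp1 (288.5) and Ctsd (258.1). With the length of the longest transcript in place of merged exon, Lamp1 stayed first on average and Ctsb came next, so the order among those after Lamp1 depends on the length used. By that length the lowest means were those of Atg14 (4.95) and Atg4a (4.61), and in pgWAT Ctsb (380.7) lay above Ctsd (337.1). Over organs, normalized CPM per kilobase of Becn1 varied least, from 13.1 in CBL to 17.7 in LIV. That of Optn went from 4.00 in BRN to 50.03 (SD 6.53, n = 18) in LIV, that of Lamp2 from 5.84 in BRN to 71.5 (SD 9.97, n = 18) in LIV, and that of Gabarapl1 from 32.3 in psWAT to 323 (SD 12.4, n = 18) in BST.

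**Figure D4:**
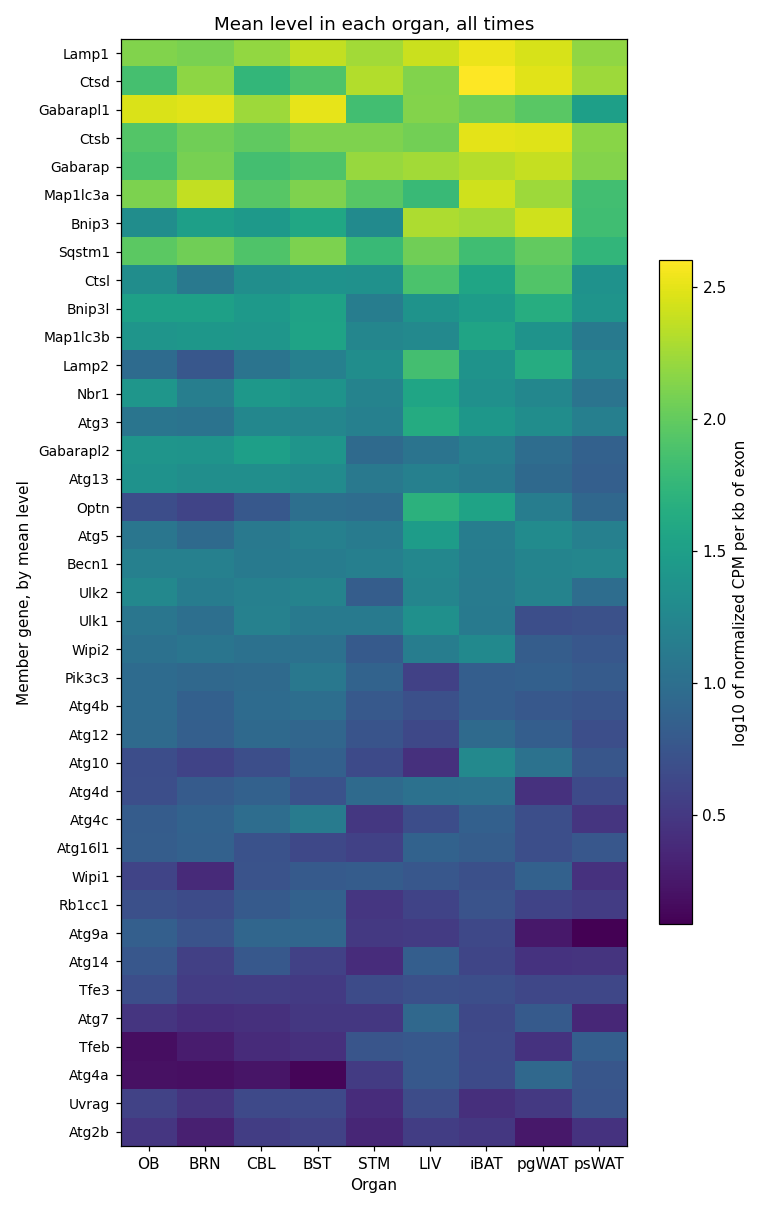
Log10 of normalized CPM per kilobase of merged exon for the 39 members in each organ, ordered by mean level. Averaged over organs Lamp1, at 205 on the linear scale, is the highest. By mean within organs it is highest only in LIV, and elsewhere Gabarapl1 or Ctsd is higher. By median Lamp1 lies above Ctsd in iBAT and psWAT.

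Differences between classes of organ were tested over 21601 genes with the edgeR test and mouse as a block, called at adjusted p under 0.05 and log2FC beyond 1 in either direction. Against the mean of the other 5 organs, the 4 nervous organs had 4 members higher beside 27.9% of genes and 8 lower beside 25.9%, with a median log2FC of 0.13 over members and −0.10 over all genes. Higher were Gabarapl1 (1.76), Atg9a (1.55), Gabarapl2 (1.39) and Atg4c (1.05), and lower were Bnip3 (−1.80), Atg4a (−1.76), Optn (−1.63), Lamp2 (−1.61), Ctsd (−1.41), Tfeb (−1.23), Ctsl (−1.11) and Gabarap (−1.10). LIV against the mean of STM and the 3 fat depots had 10 higher beside 16.7% and 2 lower beside 30.9% (medians 0.51 and −0.41). Higher were Optn (1.85), Lamp2 (1.56), Ulk1 (1.47), Atg7 (1.22), Atg3 (1.21), Bnip3 (1.16), Nbr1 (1.16), Atg14 (1.16), Ctsl (1.12) and Gabarapl1 (1.00), and lower were Atg10 (−1.60) and Map1lc3a (−1.05). A single organ can go against such a mean. Per kilobase, pgWAT lay above LIV for Bnip3 (263 and 195.2) and Ctsl (81.95 and 76.8), and the other members higher in LIV lay above each of these organs. iBAT against the 2 white depots had 8 higher beside 14.6% and none lower beside 28.8% (medians 0.50 and −0.28): Optn (1.72), Atg4d (1.61), Wipi2 (1.59), Atg9a (1.54), Ulk1 (1.38), Map1lc3a (1.26), Atg10 (1.23) and Gabarapl1 (1.09).

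How alike the members behave was described by Pearson correlation over the retained libraries (18 in each of OB, CBL, BST, LIV and pgWAT, 17 in STM, iBAT and psWAT, and 16 in BRN) after each organ's mean was removed, with libraries that share mice, depth and the length slope. Over the 741 pairs of members the median was 0.11. The highest were Map1lc3a with Bnip3 (0.863), Map1lc3a with Ctsd (0.829), Gabarap with Ctsd (0.82) and Gabarapl1 with Bnip3 (0.816), and the lowest Atg4d with Nbr1 (−0.684), Gabarap with Atg2b (−0.681) and Atg2b with Ctsd (−0.68).

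Promoters from RefSeq (GRCm38.p6, 250 bases before to 50 after the gene start) were at hand for 32 of the 40 members, with no entry for Map1lc3a, Becn1, Atg12, Atg16l1, Bnip3l, Ctsb, Pik3c3 and Rb1cc1. The letters CACGTG, the core of the element that TFEB binds and the same on both strands, occur in 8 of the 32 (25%), Atg3, Atg5, Atg7, Atg14, Bnip3, Lamp1, Ctsd and Ctsl, beside 2349 of 32851 promoters (7.15%). Median GC content was 60.3% in the members' promoters and 52.7% in all. The longer palindrome TCACGTGA, which contains the core, occurs in 2 (6.25%), Atg3 and Ctsd, beside 0.974%, and the FoxO core TGTTTAC, searched on both strands, in 0 beside 3.65%. Lamp1 holds 4 matches to the core, and Atg3 and Ctsd 2 each. Shown, with capitals marking CACGTG, are the matches with 12 bases on either side that lie whole before the RefSeq start, for 5 of these members. Gencode gene starts were read from a later release than the one the authors counted with. The RefSeq start differs from that Gencode start in Atg3, Bnip3, Ctsd and Ctsl. The windows shown for Ctsd and Ctsl lie inside the Gencode gene. Among the members with a match that are not shown, it differs in Atg5, Atg7 and Atg14. The matches of Atg7 and Atg14 also lie inside the Gencode gene. They lie at chr8:13159088-13159117, chr8:13159104-13159133 and chr8:13159121-13159150 on the plus strand for Lamp1, at chr13:64370739-64370768 on the minus strand for Ctsl, at chr7:138909597-138909626 on the minus strand for Bnip3, at chr7:142387908-142387937 on the minus strand for Ctsd, and at chr16:45158723-45158752 and chr16:45158746-45158775 on the plus strand for Atg3. A match describes these letters only.
Lamp1 site 1: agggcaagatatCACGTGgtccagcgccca
Lamp1 site 2: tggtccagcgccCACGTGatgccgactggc
Lamp1 site 3: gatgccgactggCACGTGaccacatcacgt
Ctsl: ggcgttagaagcCACGTGctgatctaaatt
Bnip3: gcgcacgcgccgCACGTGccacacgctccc
Ctsd: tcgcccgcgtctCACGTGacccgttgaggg
Atg3 site 1: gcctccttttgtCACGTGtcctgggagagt
Atg3 site 2: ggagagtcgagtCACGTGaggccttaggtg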

How the data were processed

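The deposited table holds the authors' raw read counts per gene for 162 libraries (TopHat2 2.1.1, uniquely mapped reads, HTSeq 0.9.1 in union mode, Gencode annotation). The members and the further gene lists were chosen with earlier results of these data known. In each organ, genes were kept when their CPM matched 10 counts in the median library in at least 3 libraries. Counts were scaled by TMM and fitted with edgeR 4.0.16 (robust quasi-likelihood) in R 4.3.3, with fasting time as the factor, and p was adjusted by Benjamini-Hochberg over all kept genes. Late fast is the mean of the 18 h and 22 h coefficients minus 0 h. Organ classes and the interaction used the 157 retained libraries with mouse as a block, where mouse was inferred from fasting time and replicate number. DESeq2 1.42.0, limma 3.58.1, RLE scaling, no filter, all 162 libraries, lane, length offsets, a replicate block and each library left out in turn were alternatives. Lengths are merged exons of Gencode. Lengths, gene positions and shared exons come from a later Gencode release than the one the authors counted with. The fit was tested on simulated data. Levels are given in every fed and late library for up to 5 called members in an organ with the smallest adjusted p, and for 8 set members in LIV and iBAT whatever their p. Figures were drawn with matplotlib 3.10.9 in Python 3.11.15.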

Additional observations from a re-analysis of the deposited data

Results flagged for a closer look

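For 16 members the late fast change differed between organs in the interaction test, by adjusted p over the genes kept in every organ, beside 34.2% of those genes (the count was 7 with all libraries): Atg5 7.1e-05, Gabarap 0.000331, Atg4d 0.00162, Atg14 0.00344, Atg2b 0.00518, Lamp1 0.00573, Atg3 0.00734, Gabarapl2 0.00944, Ulk1 0.0117, Map1lc3b 0.015, Atg4a 0.0163, Ulk2 0.0264, Nbr1 0.0271, Ctsd 0.0329, Atg12 0.0423 and Bnip3l 0.0476. The members called in a single organ's late fast and those called here are not the same set: Atg14, Atg4a and Ulk2 were called here and in no organ's late fast test. The Atg4a value includes the pgWAT libraries with epididymis markers.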

How the results depend on the processing

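Settings that moved a count of called members are given here, and the cause was not tested. Late fast in OB (0 members): no filter 1, replicate block 2, DESeq2 2. Late fast in BRN (8): all libraries 0, lane in the fit 0, log2FC over 1 3. Late fast in STM (4): lane 0, log2FC over 1 0. Late fast in LIV (2): replicate block 1, lane 0, log2FC over 1 0. Late fast in iBAT (13): without the 22 h libraries 0, log2FC over 1 4. Late fast in pgWAT (0): DESeq2 3.

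For the joint test of the 6 time points, OB (8) became 3 with lane, 5 with length offsets and 13 with DESeq2. BRN (0) became 7 with no filter and 3 with DESeq2, CBL (3) 5 with no filter and 6 with DESeq2, and STM (1) 0 with all libraries, 0 with lane, 2 with length offsets and 4 with DESeq2. LIV (9) became 2 with lane, iBAT (16) 0 without the 22 h libraries, pgWAT (0) 1 with DESeq2 and psWAT (0) 3 with DESeq2.

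For the daytime fast, BRN (4) became 8 with no filter, 0 with all libraries, 0 with lane, 0 with length offsets, 7 with DESeq2 and 1 at log2FC over 1. LIV (3) became 0 with the replicate block and 0 at log2FC over 1, and iBAT (0) 1 with DESeq2. At 18 h, OB (6) became 0 with lane, 1 with length offsets and 0 at log2FC over 1. At 12 h, LIV (8) became 2 with lane and 0 at log2FC over 1. At 22 h, iBAT (23) became 13 at log2FC over 1. BRN at 12 h (4) became 9 with no filter, 0 with all libraries, 0 with lane, 2 with length offsets and 9 with DESeq2, at 18 h (2) 6 with no filter, 0 with all libraries, 0 with lane, 5 with length offsets and 4 with DESeq2, and at 22 h (5) 0 with all libraries, 0 with lane and 0 with length offsets. LIV at 18 h (2) became 4 with no filter, 1 with the replicate block, 0 with lane, 1 with length offsets, 4 with DESeq2 and 0 at log2FC over 1, and at 22 h (2) 1 with the replicate block, 0 with lane and 0 at log2FC over 1. STM at 18 h (5) became 3 with all libraries, 0 with lane and 1 at log2FC over 1. CBL at 12 h (0) became 3 with no filter and 4 with DESeq2, and at 22 h (1) 3 with no filter, 4 with length offsets, 3 with DESeq2 and 0 at log2FC over 1. The interaction count (16) became 7 with all libraries. The promoter count for the core (8) became 2 with the longer palindrome.

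Named values moved as follows (adjusted p). In BRN with all libraries: Map1lc3a 0.162, Gabarap 0.204, Ctsd 0.102, Atg2b 0.48, Bnip3l 0.491. In BRN with lane: Map1lc3a, Gabarap and Ctsd 0.524, Atg2b 0.547, Bnip3l 0.598, at log2FC 0.90, 0.97, 1.21, −0.78 and 0.51. In STM with lane: Lamp1 0.732, Atg5 0.798, Atg12 0.748, Atg3 0.742. In LIV with lane: Tfeb 0.211, Optn 0.297, at log2FC 0.70 and 0.49. Optn in LIV had 0.0556 with the replicate block and 0.0899 with no filter. In LIV, Map1lc3b had 0.0442 with DESeq2, and with no filter Ulk1 had 0.0255 and Bnip3 0.0308. In iBAT without the 22 h libraries: Atg9a 0.999, Map1lc3b 0.404, Nbr1 0.716, Bnip3 0.382, Atg2b 0.688, Sqstm1 0.421, Gabarapl1 0.374, Ulk1 0.713. In iBAT with length offsets: Atg2b 0.11, Gabarapl1 0.0827, Ulk1 0.351, Ctsl 0.0215. Ulk1 in iBAT had 0.0548 with RLE, 0.0503 with no filter and 0.17 with all libraries, and Sqstm1 had 0.0713 with no filter. Atg2b in BRN had 0.176 with length offsets.

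With each library left out in turn, the lowest and highest counts were, late fast: OB 0 to 4, BRN 0 to 13, STM 1 to 10, LIV 1 to 5, iBAT 3 to 18, others 0 to 0. Joint: OB 1 to 10, BRN 0 to 6, CBL 0 to 6, STM 0 to 3, LIV 4 to 11, iBAT 3 to 21, others 0 to 0. Daytime: BRN 0 to 6, LIV 0 to 3, BST 0 to 1, others 0 to 0. Single times: OB 18 h 0 to 8, LIV 12 h 4 to 12, iBAT 18 h 0 to 0, iBAT 22 h 10 to 24, BRN 12 h 0 to 8, BRN 18 h 0 to 13, BRN 22 h 0 to 11, LIV 18 h 1 to 4, LIV 22 h 0 to 3, STM 18 h 0 to 9, STM 22 h 0 to 1, CBL 12 h 0 to 3, CBL 22 h 0 to 3, OB 22 h and CBL 18 h 0 to 0.

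The runs without the 22 h libraries of iBAT, without the pgWAT libraries with epididymis markers, and without the psWAT library with cerebellum markers were chosen after seeing the data, as were the counts at single times. Lane could not be fitted in CBL and BST, which ran in 1 lane, nor for the late fast, 22 h and joint tests of iBAT. The strand setting of the counting step is not given, so the effect of exons shared with genes on the opposite strand, 43.9% of merged exon for Becn1, was not tested. Fasting length and the dark phase taken in by the fast move together. All organs of a time come from the same 3 mice. Leaving out single libraries was computed for counts and for the members named by the rule, not for each other called member.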
